A study of Mus musculus with 17 samples.

Results

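Prg2, Prg3, Epx, Il5ra and Ccr3, 5 genes known for eosinophil granules and eosinophil receptors, were followed in mouse marrow cells carrying microRNA vectors. They were taken as all probes whose platform annotation names one of these symbols, which gave 1 probe for each of the 5 genes among 19057 genes with an unambiguous symbol. Messenger RNA was measured on 17 Illumina BeadChips, arrays on which beads bearing gene-specific probes report a fluorescence intensity. All cells came from bone marrow of C57Bl/6 mice, collected 4 days after 5-fluorouracil (150 mg/kg), which removes cycling cells and spares primitive ones, and were cultured for 7 days. The cytokines in the medium were Flt3 ligand, interleukin-11 and stem cell factor. One of the 4 retroviral vectors was empty, and the others carried miR-155, miR-125a alone, or the cluster of the microRNAs 99b, let-7e and 125a, and viable EGFP+ cells were collected 5 days after the first transduction. Dataset A held 3 empty-vector, 3 cluster and 2 miR-155 arrays, and dataset B held 3 empty-vector, 3 cluster and 3 miR-125a arrays. The design text calls the replicates biological, without naming the animals. In dataset A the signal column of 1 cluster array carries no number of its own, and it is called the unnumbered cluster array. EGFP marks cells that took up a vector and does not separate blood cell types, so every array reports a mixture of cells.

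Eosinophils are granulocytes that store toxic proteins in large granules and are best known in allergy and in defence against worms. Prg2 encodes the precursor of major basic protein, which forms the crystalline core of the granule, and Prg3 encodes a closely related homolog. Epx encodes eosinophil peroxidase, a granule enzyme that makes reactive oxidants. Il5ra encodes the ligand-binding chain of the receptor for interleukin-5, the cytokine that expands and sustains eosinophils, and Ccr3 encodes the receptor through which eotaxins draw them into tissue. GATA1, GATA2 and C/EBP factors are known regulators of eosinophil commitment. Interleukin-5 is not among the cytokines that the growth protocol names.

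The mature microRNAs of the vectors are shown because they are what the groups differ in. The sequences are those of RefSeq (GRCm38.p6), with the seed, bases 2 to 8, in capitals, and the 4 seeds differ from each other.
mmu-miR-99b-5p: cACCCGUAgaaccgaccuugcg
mmu-let-7e-5p: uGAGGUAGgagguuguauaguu
mmu-miR-125a-5p: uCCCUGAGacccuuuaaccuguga
mmu-miR-155-5p: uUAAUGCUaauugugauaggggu

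Promoters are shown for Prg3, which fell with the cluster in dataset A, and for Epx, which was not called there. RefSeq promoters were matched for 4 of the 5 genes, all but Prg2. The printed 250 bases before each start (GRCm38.p6) lie at chr2:84987965-84988214 on the + strand for Prg3 and at chr11:87875537-87875786 on the - strand for Epx. Capitals mark GATA words (AGATA or TGATA followed by A or G) and TATA words (TATAA followed by A or G), searched on both strands.
Prg3: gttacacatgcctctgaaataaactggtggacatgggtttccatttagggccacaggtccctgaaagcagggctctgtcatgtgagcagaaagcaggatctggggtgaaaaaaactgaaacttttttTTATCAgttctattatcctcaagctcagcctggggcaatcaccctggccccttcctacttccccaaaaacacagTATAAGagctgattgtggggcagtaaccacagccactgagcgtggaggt
Epx: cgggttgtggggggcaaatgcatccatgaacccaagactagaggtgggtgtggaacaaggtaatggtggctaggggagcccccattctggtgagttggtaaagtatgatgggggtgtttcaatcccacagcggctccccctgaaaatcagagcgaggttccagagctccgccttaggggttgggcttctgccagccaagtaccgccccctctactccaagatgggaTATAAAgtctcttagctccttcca
The Prg3 promoter holds a GATA word on the - strand that begins 123 bases before the start, and both promoters hold a TATA word. The 2 receptor genes have GATA words as well, shown here with their flanks, at 74 bases before the start of Il5ra and at 64 and 30 bases before that of Ccr3.
Il5ra: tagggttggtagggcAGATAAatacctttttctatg
Ccr3, farther word: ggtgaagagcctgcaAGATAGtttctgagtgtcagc
Ccr3, nearer word: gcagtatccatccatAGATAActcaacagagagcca
A C/EBP word (TTNNGNAA) was found in the promoters of Prg3 and Ccr3, and no printed word overlapped another. Over windows of 300 bases, from 250 before to 50 after the start, 3 of the 4 matched genes held a GATA word. The same search found a GATA word in 29.8% of 32851 mouse promoters, the C/EBP word in 40.7% and a TATA word in 18.8%, so these words are common. In the gene list of the same assembly Prg2 and Prg3 lie on 1 chromosome with 1 listed gene between them, Gm39868, and Epx lies near the other peroxidase genes Lpo and Mpo.

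Detection separated Prg2 from the other 4 genes. A probe was taken as detected where its detection p-value, a comparison with control beads that match no transcript, was under 0.05. Prg2 was detected on 8 of 8 arrays in dataset A and on 9 of 9 in dataset B. Prg3 was detected on 6 of 8 and 5 of 9 arrays, Epx on 3 of 8 and 3 of 9, and Il5ra on 5 of 8 and 0 of 9. Ccr3 was detected on 0 of 17 arrays. The share of all probes detected on an array was 34.8% to 38.7% in dataset A and 34.2% to 38.9% in dataset B. Levels are given as bead signals in arbitrary units, and on the log2 scale after background correction and quantile normalization within each dataset. No level of one probe is set against that of another, and since the datasets were normalized apart, levels were tested within a dataset. Only the comparison of the cluster effect between datasets used values normalized over both datasets together.

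Other markers of mature eosinophils differed in detection. Siglecf, a sialic acid receptor of mature mouse eosinophils, was detected on 0 of 8 arrays in dataset A and 1 of 9 in dataset B, and Alox15, a lipoxygenase, on none of the 17. The ribonuclease gene Ear6 was detected on 1 of 8 and 4 of 9 arrays, whereas Ear3, of the same family, was detected on 7 of 8 and 7 of 9, at log2 levels of up to 6.23 in dataset A and 7.72 in dataset B. Of the 8 markers on the array in the eosinophil list, which does not hold Ear3, between 1 and 5 were detected per array. The receptor Ccr3 and the surface marker Siglecf were thus detected on few or no arrays, and Prg2 on every array. A probe below detection does not show that its RNA was absent. Between 5 and 7 of the 7 progenitor markers were detected per array, among them Kit, Cd34 and Gata2 on all 17 arrays, while Flt3 was detected on 1 of 8 and 0 of 9 and Mecom on 3 of 8 and 2 of 9. Between 11 and 13 of the 13 neutrophil markers were detected per array.

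In dataset A the granule protein genes Prg2 and Prg3 fell with the cluster, while Epx and the receptor gene Il5ra were not called. Prg2 gave signals of 1153, 627 and 828 on empty-vector arrays 1, 2 and 3. It gave 406, 265 and 416 on cluster array 1, cluster array 3 and the unnumbered cluster array. Every cluster array lay below every empty-vector array. On the log2 scale the mean went from 9.41 ± 0.41 (SD, n = 3) with the empty vector to 8.11 ± 0.39 (SD, n = 3) with the cluster. Prg2 fell by 1.30 ± 0.24 (SE) on the log2 scale, a level 2.47-fold lower (limma, adjusted p = 0.0127, 95% interval -1.81 to -0.80). Bulk RNA cannot tell fewer cells that express a gene from less of its RNA in each cell.

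**Figure D1:**
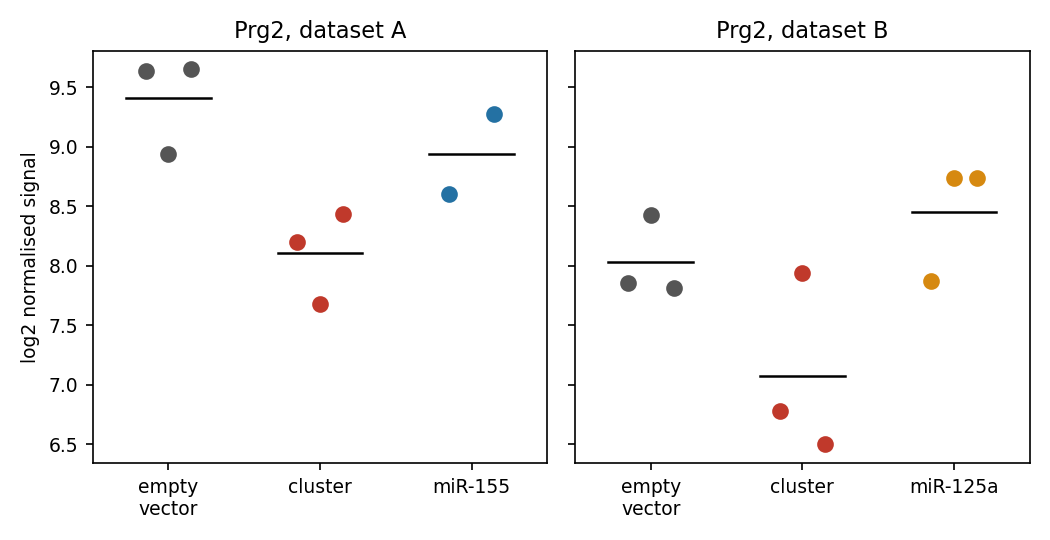
Log2 normalised signal of Prg2 on each array (points) with the group mean (bar), for dataset A on the left and dataset B on the right, each normalised by itself. In dataset A the 3 cluster arrays, between 7.68 and 8.44, lie below the 3 empty-vector arrays, between 8.94 and 9.65, and in dataset B cluster array 5 at 7.94 lies among the empty-vector arrays.

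Prg3 had log2 levels of 5.95, 5.41 and 5.40 on empty-vector arrays 1, 2 and 3, and was detected on each. It had 4.75, 4.32 and 4.43 on cluster array 1, cluster array 3 and the unnumbered cluster array, of which array 1 alone was above the detection limit. The groups did not overlap. Prg3 fell by 1.09 ± 0.19 (SE) on the log2 scale, a level 2.13-fold lower (limma, adjusted p = 0.0082, 95% interval -1.49 to -0.69). With 2 of the 3 cluster arrays not above background, the fold changed with the background correction. It was 1.27-fold in the authors' deposited log2 values, where the change was -0.34 and was not called (limma, adjusted p = 0.168).

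Of the 4 genes of the group tested in this comparison, 2 were thus called, both lower, against a background of 0.648% of 10339 genes called (32 rose and 35 fell). The median change of the 4 was -0.60, beside 0.00 over all genes tested. Epx had log2 levels of 4.76, 4.57 and 4.26 with the empty vector and 4.53, 4.24 and 4.45 with the cluster, where it was not well above background on any array. The groups overlapped and its change was -0.12 ± 0.18 (SE, limma, adjusted p = 0.963). Il5ra had 4.73, 4.71 and 4.20 with the empty vector and 4.42, 4.87 and 4.80 with the cluster, and its change was 0.15 ± 0.21 (SE, limma, adjusted p = 0.953). The 95% intervals, -0.51 to 0.27 for Epx and -0.30 to 0.60 for Il5ra, do not reach the size of the fall of Prg2 or Prg3, but both genes sat close to background, where the scale compresses a change.

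Both calls depended on the processing and on single arrays. Prg2 lost its call without background correction (adjusted p = 0.093), with offset 50 (0.0748), without a filter on dim probes (0.228) and with the series matrix values (0.0964), and likewise without empty-vector array 1 (0.0801), empty-vector array 3 (0.122) or cluster array 3 (0.0811). Prg3 lost its call under those 4 settings (0.154, 0.101, 0.108 and 0.168), with median scaling (0.101), and without empty-vector array 1 (0.0664) or the unnumbered cluster array (0.0604). All of these are adjusted p-values from limma. In the 18 alternatives each, the log2 change of Prg2 stayed between -1.54 and -1.06 and that of Prg3 between -1.20 and -0.34.

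**Figure D2:**
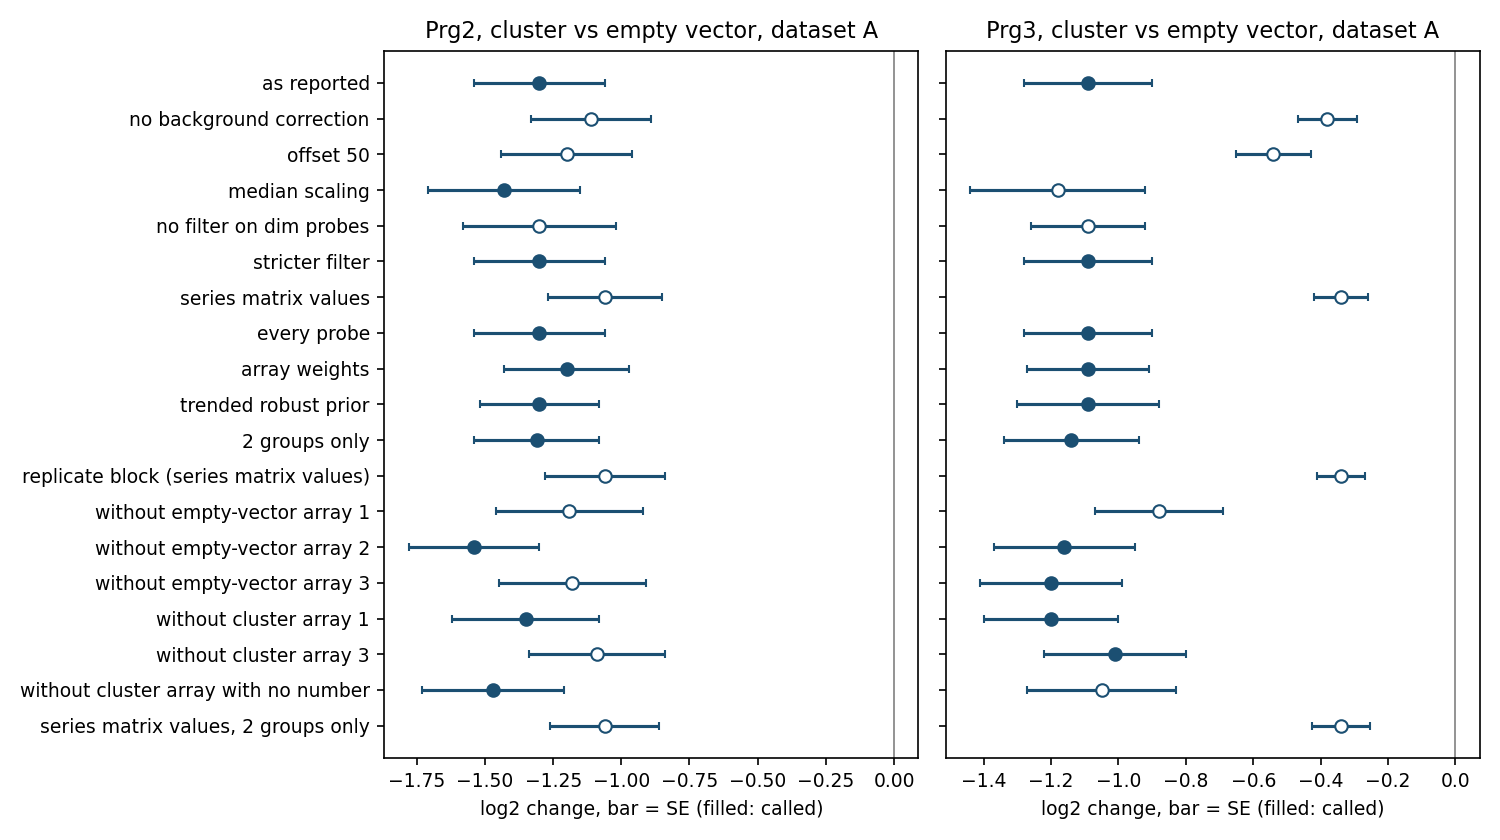
Log2 change (point) with its SE (bar) of Prg2 and Prg3, cluster against empty vector in dataset A, as reported and under each alternative; a filled point was called at an adjusted p under 0.05. All points lie below 0, Prg2 between -1.54 and -1.06 and Prg3 between -1.20 and -0.34, and open points mark the settings in which the call was lost.

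Some neutrophil granule genes fell beside Prg2 and Prg3 in dataset A. Of the 13 neutrophil markers tested, against 0.648% of all genes called, 3 fell with the cluster and 0 rose. They were Ltf (-2.0 ± 0.21, adjusted p = 6.59e-05), Camp (-1.90 ± 0.22, adjusted p = 0.000233) and Ngp (-1.42 ± 0.18, adjusted p = 0.000446), all by limma with SE. These genes encode proteins of the secondary granules that neutrophils make late in maturation. Other granule genes of the list, Elane, Prtn3, Ctsg and Mpo, changed by 0.04, 0.02, -0.03 and -0.14 and were not called. Lcn2, Mmp8 and Mmp9 of the same list changed by -0.45, -0.08 and 0.04 and were not called either. The fall was thus not shared by all late or early granule genes of the list. Over the 13 markers, 9 were lower and 4 higher, with a median of -0.14. The summed normalised signal of the list was between 113173 and 120643 on empty-vector arrays and between 96015 and 108459 on cluster arrays. Monocyte and macrophage markers were lower too, with 6 of the 7 tested below 0 (median -0.23) but 0 called. Their summed signal did not overlap, between 5641 and 7282 with the empty vector and between 4767 and 5086 with the cluster. The brightest gene of the list, F13a1 (log2 levels of 11.3 to 12.5 in dataset A), weighs most in this sum. It changed by -0.42 ± 0.17 (SE, limma, adjusted p = 0.494). Csf1r and Cd14 changed by -0.01 ± 0.16 and 0.04 ± 0.17 (SE, limma, adjusted p = 0.999 and 0.994). Of the 7 mast cell and basophil markers tested, 0 were called, and their summed signal overlapped, between 4765 and 5257 against 4215 and 4958. In dataset B, Ltf, Camp and Ngp changed with the cluster by 0.75 ± 1.3, -0.33 ± 1.2 and 0.06 ± 0.96 (SE). None of the 3 was called there (limma, adjusted p = 0.905, 0.959 and 0.992). The part of a shift in cell types in the result for Prg2 and Prg3 was not tested.

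**Figure D3:**
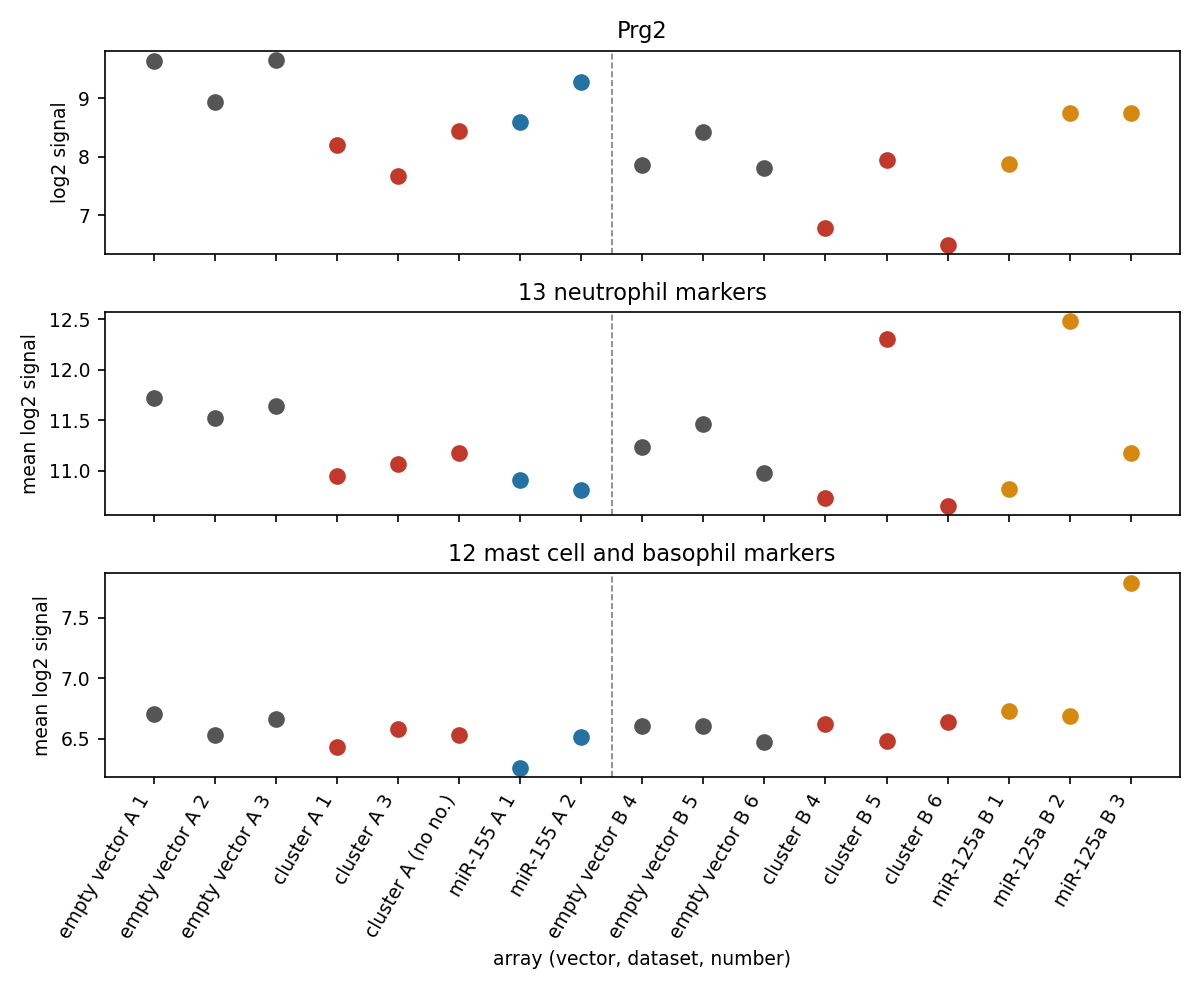
For each of the 17 arrays, the log2 signal of Prg2 (top), the mean log2 signal of 13 neutrophil markers (middle) and of 12 mast cell and basophil markers (bottom), coloured by vector, with a dashed line between datasets A and B. The neutrophil mean is highest on miR-125a array 2 (12.48) and cluster array 5 (12.31) of dataset B, and the mast cell and basophil mean on miR-125a array 3 (7.79).

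With miR-155 none of the 4 tested genes was called, against a background of 1.07% of 10339 genes. At an unadjusted p under 0.05, limma gave 931 of all 10339 genes and 1 of the 4. That gene was Prg3, at log2 levels of 4.81 and 4.96 on the 2 miR-155 arrays, both below all 3 empty-vector arrays. Its change was -0.70 ± 0.21 (SE, limma, adjusted p = 0.182, 95% interval -1.15 to -0.26). Prg2 gave signals of 490 and 430, both below those of all 3 empty-vector arrays. After normalization its log2 levels were 8.60 and 9.28, the second of them within the range of the empty-vector arrays. Its change was -0.48 ± 0.27 (SE, limma, adjusted p = 0.645). With median scaling it was -0.94 (limma, adjusted p = 0.215), where all genes had a median of -0.31. Epx (4.48 and 4.94) and Il5ra (4.50 and 5.18) were detected on miR-155 array 2 only, and their changes were 0.18 ± 0.21 and 0.29 ± 0.24 (SE, limma, adjusted p = 0.884 and 0.787).

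The cluster and miR-155 were also set against each other. None of the 4 genes was called (0.861% of 10339 genes were), and 1 of the 4, Prg2, had an unadjusted p under 0.05 by limma. Of all 10339 genes, 1065 had one. All 3 cluster arrays were below both miR-155 arrays for Prg2, by -0.83 ± 0.27 on average (SE, limma, adjusted p = 0.213). The change of Prg3 was -0.38 ± 0.21, that of Epx -0.30 ± 0.21 and that of Il5ra -0.14 ± 0.24 (SE, limma, adjusted p = 0.575, 0.688 and 0.909). Epx was below detection on all 3 cluster arrays and on 1 of the 2 miR-155 arrays, and the groups overlapped, so no fold is given. Against the empty vector, where 1.07% of 10339 genes were called, 4 of the 13 neutrophil markers fell with miR-155. The 4 included Chil3 (-2.01 ± 0.23, SE, limma, adjusted p = 0.000114), a chitinase-like protein gene that was not called with the cluster (-0.81 ± 0.20, SE, limma, adjusted p = 0.103). The others were Ltf, Camp and Ngp, with changes of -2.44 ± 0.23, -1.58 ± 0.25 and -1.56 ± 0.20 (SE, limma, adjusted p = 2.87e-05, 0.00393 and 0.000396), while Prg2 was not called there.

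In dataset B the cluster arrays had less Prg2 on average, but the groups overlapped and no member was called. Prg2 gave signals of 285, 294 and 322 on empty-vector arrays 4, 5 and 6. It gave 201, 389 and 179 on cluster arrays 4, 5 and 6. Arrays 4 and 6 lay below all empty-vector arrays and array 5 above 2 of them after normalization, at a log2 level of 7.94. The mean was 8.03 ± 0.34 (SD, n = 3) with the empty vector and 7.07 ± 0.76 (SD, n = 3) with the cluster. The change was -0.96 ± 0.36 (SE, limma, adjusted p = 0.436, 95% interval -1.75 to -0.16), a ratio of 1.94. Cluster array 5 also carried the highest neutrophil signal of its group, a summed level of 177952 against 119801 and 128488. Without it the change of Prg2 was -1.39 (limma, adjusted p = 0.326), and without both arrays numbered 5, an alternative chosen after seeing the data, it was -1.20 (limma, adjusted p = 0.521). With each of the 6 arrays left out in turn the change ranged from -1.39 to -0.67, nearest to 0 without cluster array 6, and it was -0.58 with median scaling, where all genes had a median of 0.32. Same-numbered arrays were taken as pairs in this dataset, a choice made from these same arrays and not from the labels. Values within pairs and with the block are therefore descriptions and add no support. Within all 3 pairs the log2 level of Prg2 was lower with the cluster, by -1.08, -0.49 and -1.31 for numbers 4, 5 and 6. With the number as a block the change was -0.95 ± 0.17 (SE, limma, adjusted p = 0.198) and was not called. The log2 levels of Prg3 and Epx were lower with the cluster in 2 of 3 pairs each.

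Prg3 had log2 levels of 4.63, 4.84 and 5.01 with the empty vector and 4.57, 4.99 and 4.51 with the cluster in dataset B, and was detected on 1 array of each group. Its change was -0.13 ± 0.20 (SE, limma, adjusted p = 0.881). Epx was detected on 0 of 3 empty-vector and 1 of 3 cluster arrays, and its change was -0.08 ± 0.18 (SE, limma, adjusted p = 0.926). Il5ra and Ccr3 were below detection on all 9 arrays and were not tested there, with signals of 104 to 114 and 102 to 113. Of the 3 genes tested, limma called 0 and gave 1, Prg2, an unadjusted p under 0.05. Of all 9430 genes, 917 had an unadjusted p under 0.05 by limma. In this comparison 0.0106% of 9430 genes were called, 1 gene in all, so that few genes of any kind passed. In the 9 arrays of dataset B, Epx passed the detection filter through cluster array 5 and miR-125a arrays 2 and 3.

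**Figure D4:**
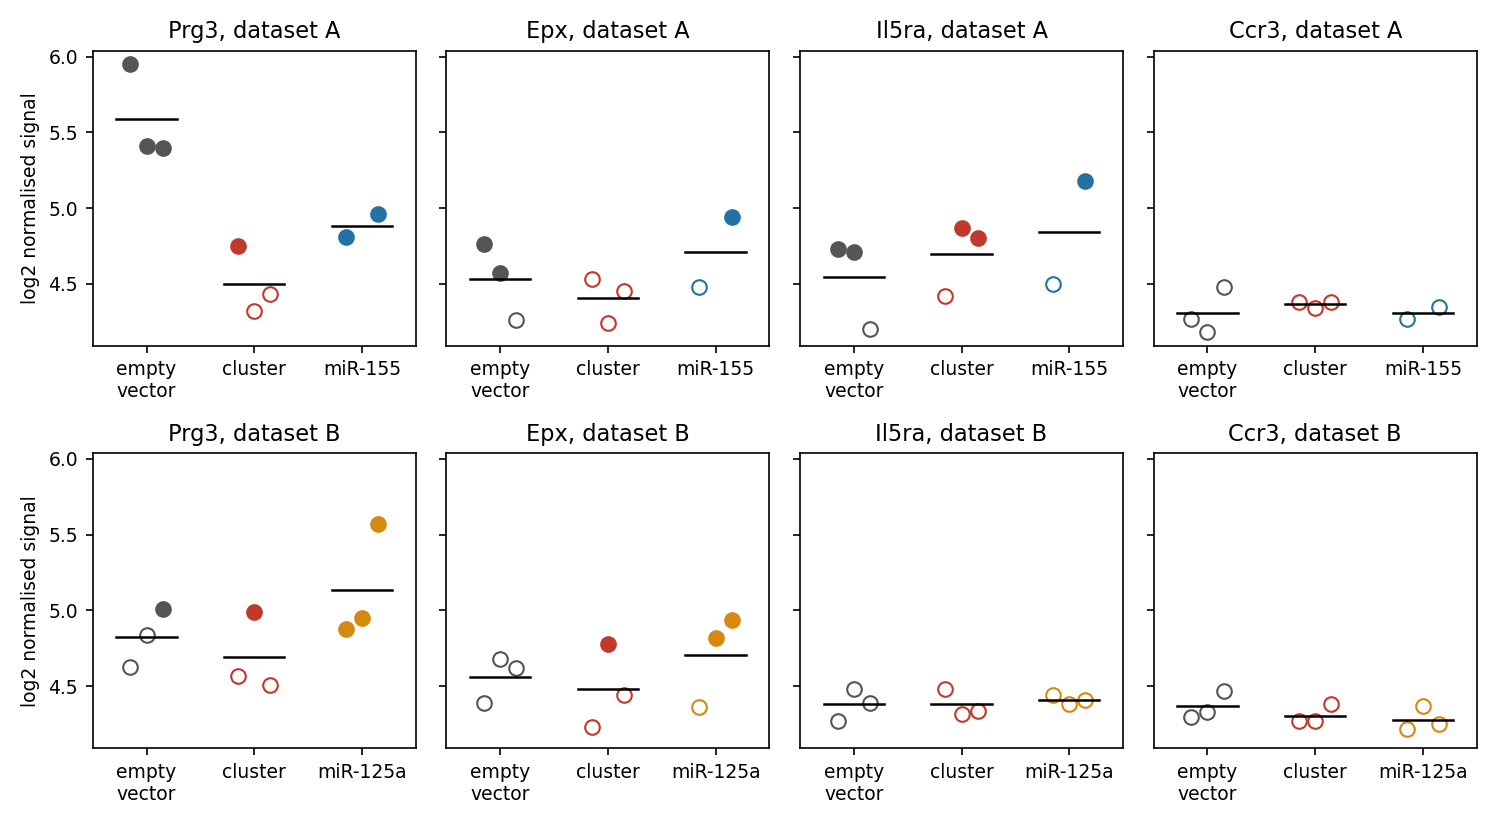
Log2 normalised signal of Prg3, Epx, Il5ra and Ccr3 on each array (points, filled where detected, open where not) with the group mean (bar), dataset A above and dataset B below. Prg3 lies higher on the 3 empty-vector arrays of dataset A, from 5.40 to 5.95, than on its cluster arrays, and Ccr3 is open on all 17 arrays.

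With miR-125a alone, Prg2 gave signals of 328, 637 and 683, all above those of the 3 empty-vector arrays. After normalization its log2 levels were 7.87, 8.74 and 8.74, the first of them within the range of the empty-vector arrays, 7.81 to 8.43. Its mean log2 level was 8.45 ± 0.50 (SD, n = 3) and its change from the empty vector 0.42 ± 0.36 (SE, limma, adjusted p = 0.715, 95% interval -0.38 to 1.21). Prg3 had log2 levels of 4.88, 4.95 and 5.57, was detected on all 3 arrays and changed by 0.31 ± 0.20 (SE, limma, adjusted p = 0.624). Epx had 4.36, 4.82 and 4.94 and changed by 0.14 ± 0.18 (SE, limma, adjusted p = 0.826). None of the 3 was called, none had an unadjusted p under 0.05 by limma, and 0% of 9430 genes were called. Of all 9430 genes, 1002 had an unadjusted p under 0.05 by limma. With arrays scaled to a common median in place of quantile normalization, Prg2 was called (limma, adjusted p = 0.0103) at a change of 1.00. Its SE there was 0.26, the same as for Prg3 and Epx, and so does not reflect the spread of Prg2 itself. In that setting all genes had a median of 0.48, Prg2 stood 0.52 above it, and 1736 genes were called.

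The arrays with miR-125a also varied in other cell type markers. Array 2 had a neutrophil sum of 188581 against 124942 and 141605 on arrays 1 and 3. Array 3 had a mast cell and basophil sum of 9237 against 4525 and 4860 on arrays 1 and 2, and it was also the array with the highest Prg3 level of dataset B. Human basophils and mast cells are known to hold some major basic protein. The part of these cells in the levels of Prg2 and Prg3 was not tested.

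The cluster contains miR-125a, and the cluster arrays were set against the miR-125a arrays within dataset B. Prg2 was lower with the cluster by -1.38 ± 0.36 on the log2 scale (SE, limma, unadjusted p = 0.00298, adjusted p = 1.00, 95% interval -2.17 to -0.58). It ranked 15th by p among all genes, and the groups overlapped, since cluster array 5 lay above miR-125a array 1. Prg3 differed by -0.45 ± 0.20 (SE, limma, unadjusted p = 0.0495, adjusted p = 1.00) and Epx by -0.23 ± 0.18 (SE, limma, adjusted p = 1.00). Of the 3 genes, limma called 0 and gave 2 an unadjusted p under 0.05, and 0% of 9430 genes were called. Of all 9430 genes, 426 had an unadjusted p under 0.05 by limma. With median scaling Prg2 was 1 of 4 genes called, at a change of -1.58 (limma, adjusted p = 5e-06), where all genes had a median of -0.16. The SE in that setting was 0.26 for Prg2, Prg3 and Epx alike. This p-value therefore does not reflect the spread of Prg2 itself between the arrays.

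**Figure D5:**
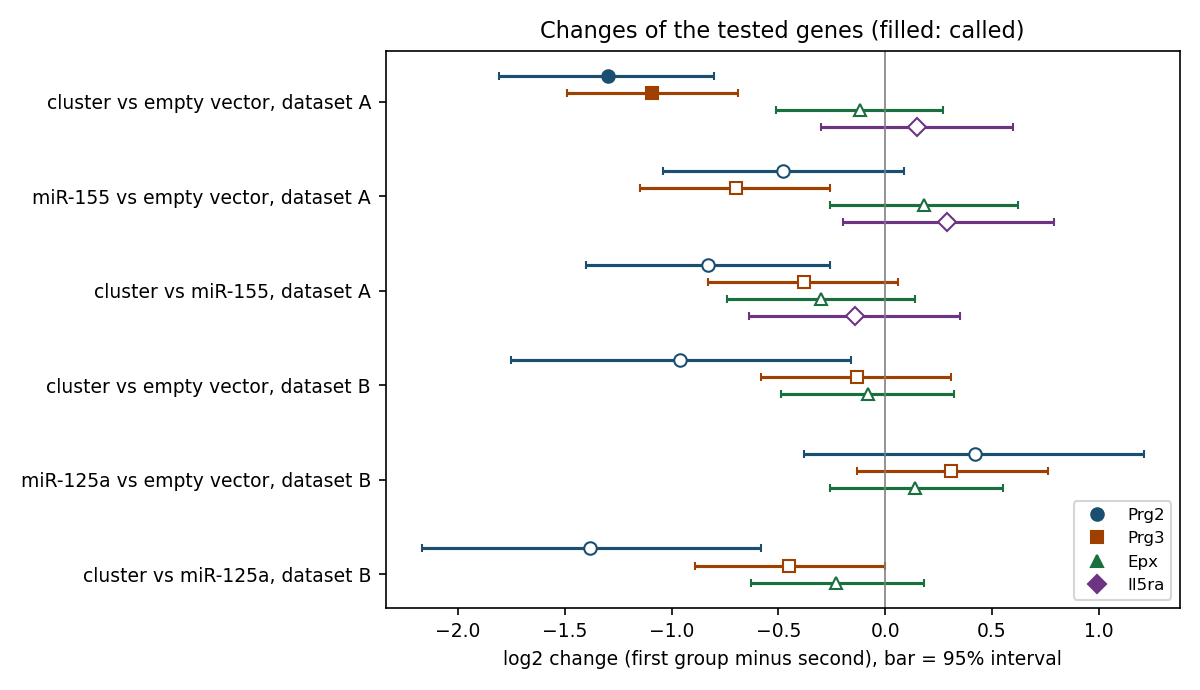
Log2 change (point) with its 95% interval (bar) of Prg2, Prg3, Epx and Il5ra in the 6 comparisons, filled where the adjusted p was under 0.05; Il5ra was not tested in dataset B. Prg2 is below 0 in the 4 comparisons with the cluster as first group, from -1.38 to -0.83, and Prg2 and Prg3 in dataset A are the 2 filled points.

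The effect of the cluster was compared between the datasets in 1 model over 12 arrays, normalized together. No member was called, limma gave 1 of 3 an unadjusted p under 0.05, and 0% of 8953 genes were called. Of all 8953 genes, 493 had an unadjusted p under 0.05 by limma. For Prg2 the change in dataset A exceeded that in dataset B by -0.32 ± 0.45 (SE, limma, adjusted p = 0.943, 95% interval -1.28 to 0.64). For Prg3 the difference was -0.94 ± 0.26 (SE, limma, unadjusted p = 0.00252, adjusted p = 0.870, 95% interval -1.49 to -0.38). For Epx it was -0.05 ± 0.24 (SE, limma, adjusted p = 0.985). After adjustment over all genes tested, the change of Prg3 is therefore not shown to differ between the datasets. Its interval is not adjusted in this way. The 2 datasets share no arrays.

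Related genes of the eosinophil programme were described beside the 5. Among 13 eosinophil-associated ribonuclease genes, toxic granule ribonucleases of mouse, 6 were on the array, 1 was tested in dataset A and 3 in dataset B, and none was called in any comparison. Ear3 changed by -0.09 ± 0.32 with the cluster in dataset A and by -0.67 ± 0.85 in dataset B (SE, limma, adjusted p = 0.992 and 0.859). These genes are near-identical copies, so that their probes may share signal. Of 6 other eosinophil surface and enzyme genes tested in each dataset, 2 fell with miR-155, where 1.07% of all genes tested were called, and none was called in the other comparisons. Adgre1, the macrophage and eosinophil surface receptor F4/80, had log2 levels of 8.33, 8.77 and 8.45 with the empty vector and 7.79 and 7.42 with miR-155. It fell by 0.91 ± 0.20 (SE, limma, adjusted p = 0.0396). Cysltr1, a receptor for cysteinyl leukotrienes, had 5.93, 6.22 and 6.44 against 5.34 and 5.37 and fell by 0.84 ± 0.19 (SE, limma, adjusted p = 0.0418). With the cluster in dataset A they changed by -0.44 ± 0.18 and -0.52 ± 0.17 (SE, limma, adjusted p = 0.516 and 0.294). The median of these 6 genes with miR-155 was 0.03, beside 0.01 over all genes, and the other 4 genes lay between -0.05 and 0.68. Monocyte and macrophage markers, a list that holds Adgre1, were lower as well. All 7 tested were lower with miR-155 (median -0.68), 2 of them called, Adgre1 and F13a1 (-0.86 ± 0.19, SE, limma, adjusted p = 0.0357). The summed signal of the list, in which F13a1 weighs most, was 3407 to 3769 against 5641 to 7282 with the empty vector. The part of these cells in the falls of Adgre1 and Cysltr1 was not tested.

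No gene was called in the lists of receptor signalling, ligands, regulators or granule packing in any of the 6 comparisons. Of the chains and signalling genes shared by the receptors for interleukin-5, interleukin-3 and GM-CSF, 7 were tested in each dataset, with a median change of 0.02 with the cluster in dataset A and 0.11 in dataset B. Csf2ra, the GM-CSF receptor alpha chain, changed by -0.61 ± 0.20 with miR-155 (SE, limma, adjusted p = 0.262). Of 5 ligands of CCR3, 1 was tested in dataset A and 2 in dataset B. Of the transcription regulators of eosinophil commitment, 11 were tested in dataset A, with a median of -0.04 with the cluster and -0.17 with miR-155, and 10 in dataset B, with a median of -0.02 with the cluster and 0.05 with miR-125a. Cebpe, a C/EBP factor needed for late granulocyte maturation, changed by -0.53 ± 0.17 with the cluster in dataset A, and Gata2, a regulator of progenitors, mast cells and eosinophils, by 0.52 ± 0.14 with miR-125a (SE, limma, adjusted p = 0.281 and 0.251). Of 4 tested genes of granule packing and peroxidase relatives, Mpo, the peroxidase of neutrophils and monocytes, changed by -0.14 ± 0.16 with the cluster in dataset A (SE, limma, adjusted p = 0.930).

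The genes whose pattern was most like that of a member were found over the 17 arrays after centring each dataset, among 9015 other genes. The arrays share vectors and normalization, and the correlations are descriptions. For Prg2 they were Gapt (Pearson r = 0.83), Fcnb (0.80), Ring1 (0.79), Alox5 (0.78) and Gripap1 (0.78), with Prg3 next at 0.77 and Epx in place 72 at 0.63. Fcnb encodes ficolin B, a lectin of myeloid cells, and Alox5 encodes 5-lipoxygenase, the enzyme that begins leukotriene synthesis. Within the datasets Prg2 and Prg3 correlated at 0.86 over 8 arrays and at 0.75 over 9, and after removal of the group means at 0.58. With the group means removed, Gapt, Fcnb, Ring1, Alox5 and Gripap1 correlated with Prg2 at 0.64, 0.76, 0.38, 0.52 and 0.79. For Prg3 the nearest genes were 0610030E20Rik (0.87), Lpgat1 (0.84), Tagap (0.83), Fam160b2 (0.82) and Cramp1l (0.81). For Epx, which was near background on most arrays, they were 2010016I18Rik (0.81), Anapc11 (0.76), Smpd4 (0.73), Foxred1 (0.71) and Cebpe (0.71).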

How the data were processed

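Probe intensity values were bead signals of 45281 probes on 17 arrays, hybridised from 100 ng of RNA per the labels' protocols. Per the submitters' processing notes GenomeStudio was used, and the values were deposited without normalization, as read from the values themselves. The detection p-value of each probe was deposited beside them, per the file headers. The log2 values of the series matrix, deposited by the authors, served as an alternative. Their making is not given in the sources used.

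With R 4.3.3 and limma 3.58.1, background was corrected (normexp with detection p-values, offset 16), and quantiles were normalized within each dataset. For the comparison between datasets, the empty-vector and cluster arrays of both were normalized together. A gene was its brightest probe, tested where the detection p was under 0.05 on at least 2 arrays (dataset A) or 3 (dataset B). All groups of a dataset entered 1 fit. Adjusted p (Benjamini-Hochberg) over all genes under 0.05 was called. Every adjusted p comes from limma. The scripts were tested on simulated data. P-values measure only the spread between these arrays, and the number of arrays limits precision. The design text speaks of triplicates, and 2 miR-155 arrays were analysed here.

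The genes and lists were chosen with earlier results of these data known. The rule for naming took all 5 genes, at most 2 genes a list (called ones, otherwise the largest changes) and the 5 most alike genes. Ltf, Camp, Ngp and the other markers come from cell type lists. Same-numbered cluster and empty-vector arrays deviated together in dataset B (correlations of 0.140 to 0.279 over 3 pairs), where the numbers were taken as pairs, from the data and not the labels. In dataset A the correlations were of mixed sign (-0.185 to 0.359), and the numbers were not taken as pairs. Background, offset, scaling, filter, values, probe summary, array weights, variance prior, groups in the fit, a replicate block and single arrays were varied.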

Additional observations from a re-analysis of the deposited data

How the results depend on the processing

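The count of 2 called genes with the cluster in dataset A became 0 without background correction, with offset 50, without the filter on dim probes, with the series matrix values and with those values on the 2 groups alone (added after seeing the data), and 1 with median scaling. It ranged from 0 to 2 with single arrays left out. The replicate block gave 0 in dataset A (7 genes called in all, on the series matrix values), with Prg2 and Prg3 at 0.254 each (limma, adjusted p). The labels do not say whether the numbers pair the arrays. Correlations of same-numbered arrays there ran from -0.185 to 0.359. In dataset B, the block changed no call, with Prg2 at -0.95 (limma, adjusted p = 0.198). Genes called in that dataset A comparison were 67 as reported, 20 with median scaling, 21 without the filter, 37 with series matrix values and 42 without background correction. With median scaling the SE in dataset B was 0.26 for Prg2, Prg3 and Epx alike. Median scaling gave 1 called gene in place of 0 for miR-125a against the empty vector and for the cluster against miR-125a, in both Prg2. It moved the median of all genes by -0.31 for miR-155 against the empty vector, 0.23 for the cluster against miR-155 and 0.32 for the cluster in dataset B, relative to which Prg2 stood at -0.63, -0.72 and -0.90. Counts in the other comparisons were 0 in every alternative run. Uncalled changes near 0 turned sign. With single arrays left out, Il5ra ranged from -0.03 to 0.29 (cluster, dataset A), -0.05 to 0.63 (miR-155) and -0.48 to 0.21 (cluster against miR-155), Epx from -0.06 to 0.41 (miR-155) and -0.17 to 0.04 (cluster, dataset B), and the differences between datasets from -0.20 to 0.07 for Epx and -0.61 to 0.12 for Prg2. Il5ra went to -0.03 (cluster, dataset A) without empty-vector array 3, to -0.05 (miR-155) and 0.21 (cluster against miR-155) without miR-155 array 2, and to 0 in the last with median scaling. Epx went to -0.06 (miR-155) without miR-155 array 2 and to 0.04 (cluster, dataset B) without cluster array 4. The Epx difference between datasets went to 0.01 without background correction and with series matrix values, and to 0.07, 0.05 and 0.03 without empty-vector array 1, cluster array 3 or empty-vector array 4. That of Prg2 went to 0.12 without cluster array 5. Chip as a block was not run, since the column names give no chip. The cause of these changes was not tested.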
